A study of Mus musculus with 3 samples.

Results

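The caspases Casp1, Casp2, Casp4, Casp6, Casp8 and Casp9, the caspase-8 regulator Cflar and the death receptor adaptor Fadd were measured in regulatory T cells of the mouse by polyA plus RNA-seq. The 8 genes were chosen by symbol from the 22457 genes listed, with earlier results of these data known. The cells were primary regulatory T cells, a CD4 T cell type that Foxp3 defines, from adult mice aged 4 months, and the labels trace them to haematopoietic cells of bone marrow. A single biological replicate gave 3 libraries, here called libraries 1, 2 and 3 after their technical replicate numbers. No second group was included, so the questions were how high each gene stood, in which order, and whether the libraries differed beyond counting error. The labels used here name no strain, number of animals or gate for the cells. The p-values measure only the spread between libraries labelled as technical replicates of the same biological replicate.

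Caspases are proteases that cut after aspartate with a catalytic cysteine, and they are made as inactive precursors. In the death receptor route, Fas or a TNF receptor recruits Fadd, which gathers caspase-8, and the catalytically inactive relative encoded by Cflar (cFLIP) holds caspase-8 in check. In the mitochondrial route, cytochrome c and Apaf1 activate caspase-9, and both routes end in executioner caspases. Caspase-1 and mouse caspase-4 (also called caspase-11) serve inflammasomes and cut gasdermin D. In mouse T cells, deletion of Casp8 or Fadd impairs the response to antigen and exposes the cells to necroptosis, a death programme run by Ripk3 and Mlkl.

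The coding sequence around the catalytic cysteine is shown because it separates the caspases of the list from Cflar. Each line gives 27 bases, 5′ to 3′ on the coding strand, from the longest complete coding transcript of GENCODE M21 (GRCm38). Capitals mark the codon of the catalytic cysteine, or in Cflar the codon at the same distance from the upstream codons it shares with Casp8.
Casp8: ttcattcaggctTGCcaaggaagtaac
Cflar: tttattcagaacTATgagtcgttaggt
Casp9: ttcatccaggccTGCggtggtgagcag
Casp2: ttcatccaagcaTGTcgtggagatgag
Casp6: atcatccaggccTGTcggggtagccag
Casp1: attattcaggcaTGCcgtggagagaaa
Casp4: attgtgcaggccTGCagaggtgggaac

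All 6 caspases carry a cysteine codon, TGC in Casp1, Casp4, Casp8 and Casp9 and TGT in Casp2 and Casp6. The caspase-8 codon is number 382 of 500 and lies at chr1:58844619-58844621. Cflar has TAT, a tyrosine codon, at codon 365 of 484 (chr1:58752623-58752625). Fadd is an adaptor of 205 codons without a protease domain. Translated and aligned end to end, Casp1 and Casp4 were identical at 46.5% of aligned positions, Casp8 and Cflar at 31.6% and Casp8 and Casp9 at 33.7%. No pair of the list was near-identical.

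Counts are given as deposited, and levels as CPM, counts scaled to a library total of 1000000. Totals were 3206781, 3228215 and 2872350 counts in libraries 1, 2 and 3. To compare genes with each other, CPM was divided by kb of coding sequence. All 8 genes reached 1 CPM in every library, against 10866 of 22457 genes (48.4%) overall. Their median was 101 CPM per kb. Coding genes at 1 CPM or more in every library had a median of 29.9 CPM per kb (10602 genes with at least 300 coding bases). The members were chosen with earlier results of these data known. Casp12 and Casp14, both under 1 CPM in every library, are not among them. Neither comparison therefore describes caspases as a family. From highest to lowest the order was Casp8, Casp1, Casp4, Casp6, Casp2, Cflar, Fadd and Casp9.

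**Figure D1:**
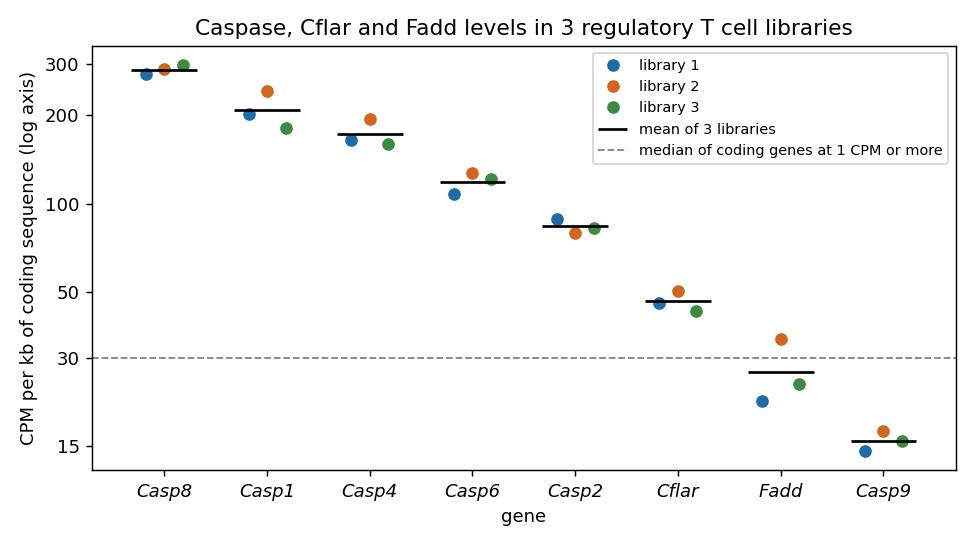
Level of each gene in CPM per kb of coding sequence (log axis) in libraries 1, 2 and 3 (points), with the mean of 3 libraries (black bar) and, as a dashed line, the median of 29.9 CPM per kb of coding genes at 1 CPM or more. Casp8 lies at the top and Casp9 at the bottom, and 6 of the 8 means are above the dashed line.

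In the death receptor branch the initiator stood far above its adaptor and its inhibitor in all 3 libraries. Casp8, the initiator protease, lies at chr1:58795374-58847503 on the plus strand (ENSMUSG00000026029.10) and had 1326, 1389 and 1277 counts in libraries 1, 2 and 3. These counts equal 413, 430.3 and 445 CPM, or 276, 287 and 296 CPM per kb of coding sequence (mean 286 ± 10.4, SD, n = 3 libraries). The 3 values lie close together, and the gene stood higher per kb than 95.9% of coding genes at 1 CPM or more.

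Fadd, the adaptor between death receptors and caspase-8, lies at chr7:144577318-144582463 on the minus strand (ENSMUSG00000031077.7) and had 42, 69 and 43 counts. Its level was 21.3, 34.8 and 24.3 CPM per kb (mean 26.8 ± 7.06, SD, n = 3), and library 2 stood above both others. Within each library Fadd was below Casp8, by -3.69, -3.05 and -3.61 on the log2 scale per kb (mean -3.45 ± 0.35, SD). In pooled counts Casp8 exceeded Fadd by 10.6-fold per kb (95% exact binomial interval 9.05 to 12.6). An annotated antisense gene, Faddos, shares 239 exon bases with Fadd, and without a stated strand setting their reads cannot be told apart.

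Cflar, the inhibitor, lies upstream of Casp8 on the same strand at chr1:58711508-58758884 (ENSMUSG00000026031.11). It had 221, 245 and 186 counts, or 46.0, 50.7 and 43.2 CPM per kb (mean 46.6 ± 3.76, SD, n = 3). The inhibitor transcript was thus well below that of its target in all 3 libraries. The log2 ratio of Cflar to Casp8 per kb was -2.58, -2.50 and -2.78 (mean -2.62 ± 0.14, SD), and pooled counts put Casp8 6.11-fold above Cflar (95% exact binomial interval 5.63 to 6.65). The gene model of Cflar has 1498 coding bases but 12669 exon bases, so its level depends strongly on the length used.

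The initiators of the other routes were lower than caspase-8. Casp2, the caspase of the PIDDosome, which responds to surplus centrosomes and DNA damage, lies at chr6:42264985-42282508 on the plus strand (ENSMUSG00000029863.9). It had 405, 364 and 337 counts, or 89.1, 79.6 and 82.8 CPM per kb (mean 83.8 ± 4.86, SD, n = 3). Library 1 was the highest for Casp2, unlike for the other members.

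Casp9, the caspase of the apoptosome, was the lowest of the 8 genes per kb of coding sequence, but Fadd was lower in unscaled counts and CPM in every library. Per kb of exon sequence the means of Fadd and Casp9 were 4.22 and 4.09 CPM, so their order depends on the length used. It lies at chr4:141793612-141815976 on the plus strand (ENSMUSG00000028914.9) and had 63, 74 and 61 counts, or 14.4, 16.8 and 15.6 CPM per kb (mean 15.6 ± 1.20, SD, n = 3). In pooled counts Casp8 exceeded Casp9 by 18.3-fold per kb (95% exact binomial interval 15.9 to 21.2). Of its exon bases 94 are shared with genes on the other strand. Casp9 was above Apaf1, the scaffold that activates it, by 0.74 ± 0.13 on the log2 scale per kb of coding sequence (SD, n = 3). That ratio is 0.05 per kb of exon sequence and turns to -0.75 without a length correction, so no order of Casp9 and Apaf1 is drawn.

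Casp6, an executioner caspase known for cutting nuclear lamins, lies at chr3:129901425-129914103 on the plus strand (ENSMUSG00000027997.8). It had 287, 341 and 288 counts, or 108, 128 and 121 CPM per kb (mean 119 ± 9.92, SD, n = 3). It stood above Casp2 and below Casp4 in all 3 libraries.

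The inflammatory caspases ranked directly below caspase-8. Casp1, the protease of canonical inflammasomes, lies at chr9:5298517-5307265 on the plus strand (ENSMUSG00000025888.5) and had 780, 940 and 628 counts. Its level was 202, 241 and 181 CPM per kb (mean 208 ± 30.6, SD, n = 3), with library 2 the highest and library 3 the lowest. Casp4, the sensor of cytosolic lipopolysaccharide, follows it on the same strand at chr9:5308828-5336783 (ENSMUSG00000033538.9). It had 593, 701 and 512 counts, or 165, 194 and 159 CPM per kb (mean 173 ± 18.6, SD, n = 3), in the same order of libraries. The log2 ratio of Casp4 to Casp1 per kb was -0.29, -0.32 and -0.19 (mean -0.26 ± 0.07, SD), which is Casp1 above Casp4 in 3 of 3 libraries.

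Of the 7 pairs of neighbours in the order, 6 had ranges over the libraries that did not overlap, and only the ranges of Casp1 and Casp4 overlapped. Ratios of pooled counts per kb ran from 1.21 (Casp1 to Casp4, 95% exact binomial interval 1.13 to 1.28) to 1.79 (Casp2 to Cflar, 1.63 to 1.98). These intervals cover counting error only. With exon length in place of coding length, Casp1 (168 CPM per kb) stood above Casp8 (148 CPM per kb), and the other 6 genes kept their ranks.

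The libraries were then compared gene by gene with a chi-square test of the 3 counts against Poisson expectation, with TMM library sizes from edgeR and Benjamini-Hochberg adjustment over 10282 genes. Of the 8 members 2 passed an adjusted p of 0.05, Casp1 and Casp4, and both were highest in library 2. Among all genes tested 27.6% passed, so the members' count of 2 of 8 is near the background. The share that passed with library 2 the highest was 8.71% of all genes. The members' 2 of 8 is above it, but both calls rest on that library, and no excess is read from 2 genes. For Casp1, library 2 exceeded library 3 by 1.30-fold (95% exact binomial interval 1.18 to 1.44, chi-square adjusted p = 2.14e-05). For Casp4, library 2 exceeded library 3 by 1.19-fold (95% exact binomial interval 1.06 to 1.34, chi-square adjusted p = 0.0239).

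The other 6 members did not pass. Fadd had the widest spread, 1.59-fold between libraries 2 and 1 (95% exact binomial interval 1.07 to 2.39), but on few counts (chi-square adjusted p = 0.109). Casp2, Casp8, Casp6, Cflar and Casp9 had chi-square adjusted p = 0.285, 0.312, 0.335, 0.523 and 0.831. Their highest library exceeded the lowest by 1.07-fold in Casp8 and by 1.14-fold to 1.15-fold in the other 4 genes. The median over all genes tested was 1.25-fold. In 6 of 8 members the highest library was library 2, the library that was highest for 35.5% of the genes tested.

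The calls of Casp1 and Casp4 depended on library 2 and on the Poisson model. Without library 2 neither gene passed (chi-square adjusted p = 0.198 and 0.751), and without library 3 Casp4 did not (chi-square adjusted p = 0.0545). With a dispersion shared by all genes, estimated by edgeR, a negative binomial model called 0 of 8 members and 0.914% of all genes. No member had an unadjusted p under 0.05 in that model. The dispersion was estimated from the same 3 libraries, so it already holds the spread under test. The absence of member calls therefore does not show that the libraries agree.

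**Figure D2:**
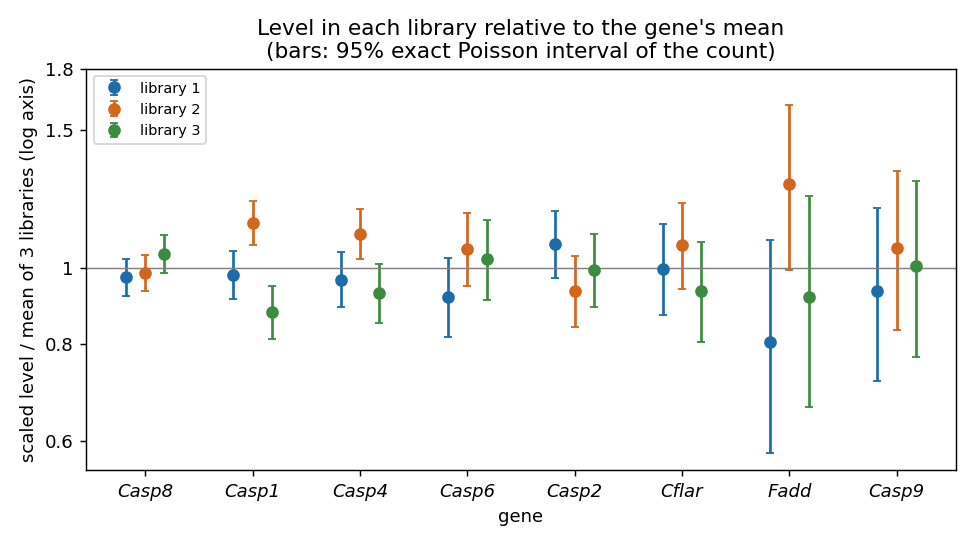
Scaled level (TMM library sizes) of each gene in libraries 1, 2 and 3 relative to its mean over the 3 libraries (log axis), with 95% exact Poisson intervals of the counts as bars. Casp1 and Casp4 are highest in library 2 and lowest in library 3, while the intervals of the libraries overlap for Casp2, Casp6, Casp8, Casp9, Cflar and Fadd.

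Casp1 had the smallest p among the members. Over the 3 libraries, the genes whose centred log2 levels were nearest to it among 6272 genes with a mean count of at least 100 were Xrcc4, Mterf2 and Zfp729b (Euclidean distances 0.00227, 0.00816 and 0.0112). Only 3 libraries, labelled as technical replicates, enter this measure. The 3 genes had 112 to 251 counts per library, so counting error exceeds these distances. Their ranking among 6272 genes is therefore not interpreted.

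The promoters of the neighbouring inflammatory caspase genes Casp1 and Casp4 are shown as context, to set a window without a motif match beside the window with one. The values of the libraries do not bear on them. Each line gives the 250 bases before a RefSeq start (GRCm38.p6, plus strand). Capitals mark matches to the NF-kB consensus. RefSeq lists 2 starts for Casp4, of which the upstream one is shown. The windows lie at chr9:5298267-5298516 for Casp1 and chr9:5308599-5308848 for Casp4.
Casp1: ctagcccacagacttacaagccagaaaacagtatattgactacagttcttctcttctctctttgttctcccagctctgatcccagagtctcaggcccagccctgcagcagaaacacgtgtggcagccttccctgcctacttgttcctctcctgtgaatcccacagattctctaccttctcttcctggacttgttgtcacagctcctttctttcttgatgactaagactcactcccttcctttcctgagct
Casp4: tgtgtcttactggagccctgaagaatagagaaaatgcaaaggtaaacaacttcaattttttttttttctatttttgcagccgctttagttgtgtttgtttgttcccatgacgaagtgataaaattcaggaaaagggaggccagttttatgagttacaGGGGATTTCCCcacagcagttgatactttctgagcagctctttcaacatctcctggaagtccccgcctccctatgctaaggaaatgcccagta

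The Casp4 window held 3 overlapping matches to the NF-kB consensus on both strands, the first of which begins at -93 from the start. That consensus occurred in 3.9% of 32851 promoter windows of this length. The Casp1 window held none of the 3 motifs searched on both strands. Beside NF-kB these were the STAT motif TTCNNNGAA, present in 7.02% of windows, and an interferon response motif of a GAAA followed by NN and a further GAAA, present in 2.98%. The windows of Cflar, Casp8, Casp6, Casp9, Casp2 and Fadd held none of them either. The Casp8 window, chr1:58802252-58802501, lies inside the gene as placed above, so the bases before the start of that gene model were not searched. A match or its lack describes these letters only. The windows of Casp1 and Casp4 had 1 and 3 CpG dinucleotides, and those of Casp9, Fadd and Casp2 had 25, 19 and 17. Those of Casp8, Cflar and Casp6 lay between with 5, 7 and 11, and the median over all windows was 6.

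Other genes of these pathways were taken from lists chosen with earlier results of the data known. Of 55 genes, 45 reached 1 CPM in every library, and 14 of 44 tested passed the chi-square test, where 27.6% of all genes tested did, so the share is near the background. Of the 14, library 1 was highest in 8, library 2 in 5 and library 3 in 1. The negative binomial model called 0 of the 44, so 0 in each list below, and 2 had an unadjusted p under 0.05.

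**Figure D3:**
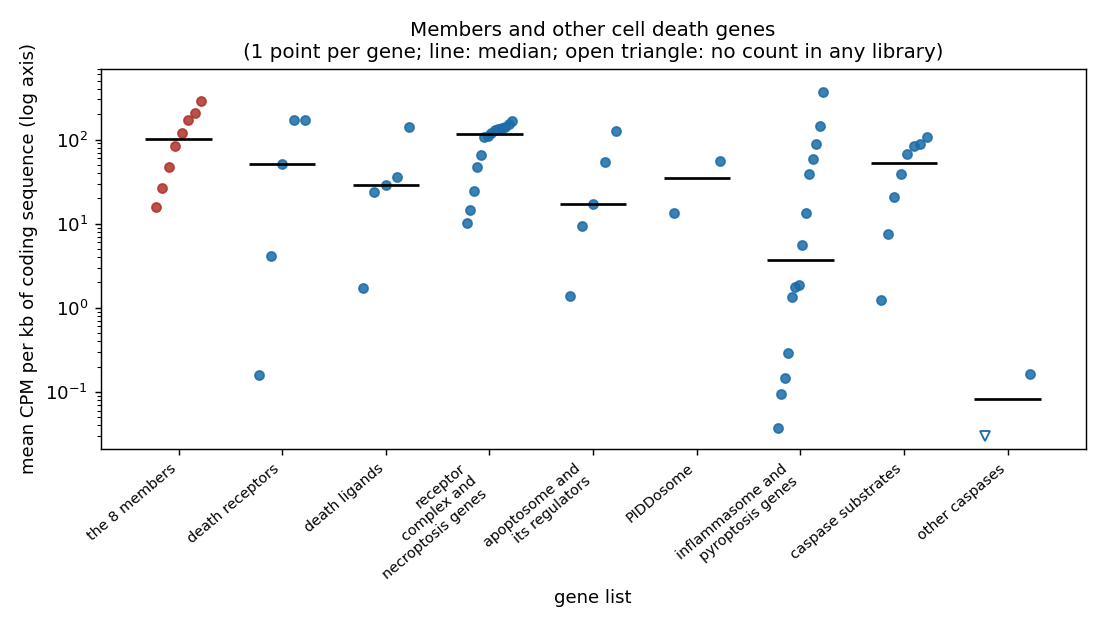
Mean level in CPM per kb of coding sequence (log axis) of the 8 members (red) and of the other genes by list (blue), 1 point per gene, with the median of each list as a line and an open triangle for a gene with no count. The last list holds only Casp12 and Casp14. The members' median is 101 CPM per kb, that of the receptor complex and necroptosis genes 115 and that of the inflammasome and pyroptosis genes 3.71.

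Death receptors upstream of Fadd were present in 4 of 5 cases. Fas stood at 173 ± 11.8 and Tnfrsf25 (DR3) at 171 ± 4.51 CPM per kb (SD, n = 3). Casp8 exceeded Fas by 0.73 ± 0.10 on the log2 scale per kb. Tnfrsf1a, the TNF receptor with a death domain, stood at 51.7 ± 9.94 CPM per kb and was the 1 receptor of 4 tested that passed (chi-square adjusted p = 0.00337, highest in library 2). Tnfrsf10b, the TRAIL receptor, was at 4.12 ± 0.477 CPM per kb, and Tnfrsf21 had 2, 1 and 0 counts.

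Of the ligands, Lta, which encodes lymphotoxin alpha, led with 143 ± 13.4 CPM per kb (SD, n = 3). Tnfsf10 (TRAIL), Tnf and Fasl were lower at 36.0 ± 0.958, 28.8 ± 3.30 and 23.8 ± 2.61 CPM per kb, and Tnfsf15 had 3, 6 and 4 counts. Of 4 ligands tested 0 passed the chi-square test, 0 had an unadjusted p under 0.05, and the negative binomial model also called 0.

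All 14 receptor complex and necroptosis genes reached 1 CPM, with a median of 115 CPM per kb. Highest were the deubiquitinase gene Cyld at 169 ± 23.0, Sharpin of the linear ubiquitin ligase at 154 ± 4.38, the ubiquitin ligase gene Birc3 at 143 ± 8.85 and the adaptor gene Traf2 at 138 ± 7.96 CPM per kb (SD, n = 3). Of the 14 genes 5 passed the chi-square test, against 27.6% of all genes, and 0 passed under the negative binomial model. Of the 5, Birc2, Birc3 and the deubiquitinase gene Tnfaip3 were highest in library 1, Rbck1 of the linear ubiquitin ligase in library 2 and Cyld in library 3. Chosen after their values were seen, Ripk3 stood at 119 ± 4.57 CPM per kb and Mlkl, the effector of necroptosis, at 10.3 ± 1.36 CPM per kb.

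In the mitochondrial route, Diablo and Htra2, which encode released antagonists of inhibitor of apoptosis proteins, stood at 126 ± 8.17 and 54.0 ± 3.81 CPM per kb (SD, n = 3). Xiap, the inhibitor of caspases, was at 17.1 ± 2.71 and Apaf1 at 9.42 ± 1.35 CPM per kb. Cycs, which encodes cytochrome c, had 1, 1 and 2 counts, but near-identical processed copies make its count uncertain. Of 4 genes tested 0 passed the chi-square test, 0 had an unadjusted p under 0.05, and the negative binomial model also called 0. The PIDDosome partners of Casp2, Cradd and Pidd1, stood at 55.9 ± 6.04 and 13.5 ± 2.37 CPM per kb. Neither passed the chi-square test, and 1 of the 2 had an unadjusted p under 0.05, while the negative binomial model called 0.

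Around Casp1 and Casp4, the adaptor and the pore gene were abundant while most sensors were low. Pycard, the inflammasome adaptor ASC, stood at 369 ± 45.8 CPM per kb of coding sequence, and Gsdmd, the substrate that forms membrane pores, at 144 ± 14.3 CPM per kb (SD, n = 3). Without a length correction Pycard stood at 214 CPM, below Casp8 at 429 and Casp1 at 251 CPM, so its order against the members depends on the length used. The NLRP3 partner gene Nek7 and the DNA sensor gene Aim2 followed at 87.8 ± 8.83 and 59.1 ± 13.4 CPM per kb. Nlrp6, Mefv and Il1b were under 1 CPM in every library, and Nlrp3 had 1, 0 and 3 counts. Of 9 genes tested 4 passed the chi-square test, against 27.6% of all genes, and 0 passed under the negative binomial model. Of the 4, Pycard was highest in library 2 and Gsdmd, Aim2 and Nlrp1a in library 1. Nlrp1a has a close paralogue, Nlrp1b, so its count is uncertain.

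Caspase substrates all reached 1 CPM. Bid, which links caspase-8 to mitochondria, stood at 108 ± 2.66, the chromatin factor gene Acin1 at 89.2 ± 5.67, the kinase gene Rock1 at 84.1 ± 8.93 and Parp1 at 66.6 ± 8.17 CPM per kb (SD, n = 3). Of 7 tested 4 passed the chi-square test, against 27.6% of all genes, and 0 passed under the negative binomial model. Highest were Parp1 and the nuclease gene Dffb in library 1 and Rock1 and the lamin gene Lmna in library 2. Of the other caspase genes listed, Casp12 had 2, 0 and 0 counts, and Casp14 had none, against a floor of 3 counts per library (0.936, 0.929 and 1.04 CPM).

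Markers of the labelled cells were high in every library, and several lists of other cells were low. All 9 regulatory T cell markers reached 1 CPM, with a summed level of 4095, 4067 and 4127 CPM in libraries 1, 2 and 3, and Foxp3 had 455, 507 and 432 counts. The chi-square test called 2 of 9 regulatory T cell and 5 of 7 T cell markers, and the negative binomial model called 0 of either list. The negative binomial model also called 0 of the CD8, monocyte or macrophage and dendritic cell markers tested, but all 4 neutrophil and all 7 erythroid markers tested, 2 of 3 plasma cell, 2 of 7 B cell and 1 of 2 NK cell markers. Of the 7 T cell markers all reached 1 CPM (3918 to 4155 CPM summed), as did both CD8 markers (27.8 to 39.0 CPM) and all 8 B cell markers (259 to 431 CPM). Dendritic cell markers reached 1 CPM in 2 of 7 cases (9.67 to 17.1 CPM), and NK cell markers in 3 of 4 (33.4 to 53.6 CPM). In bulk RNA, fewer cells of a type and less RNA per cell cannot be told apart.

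**Figure D4:**
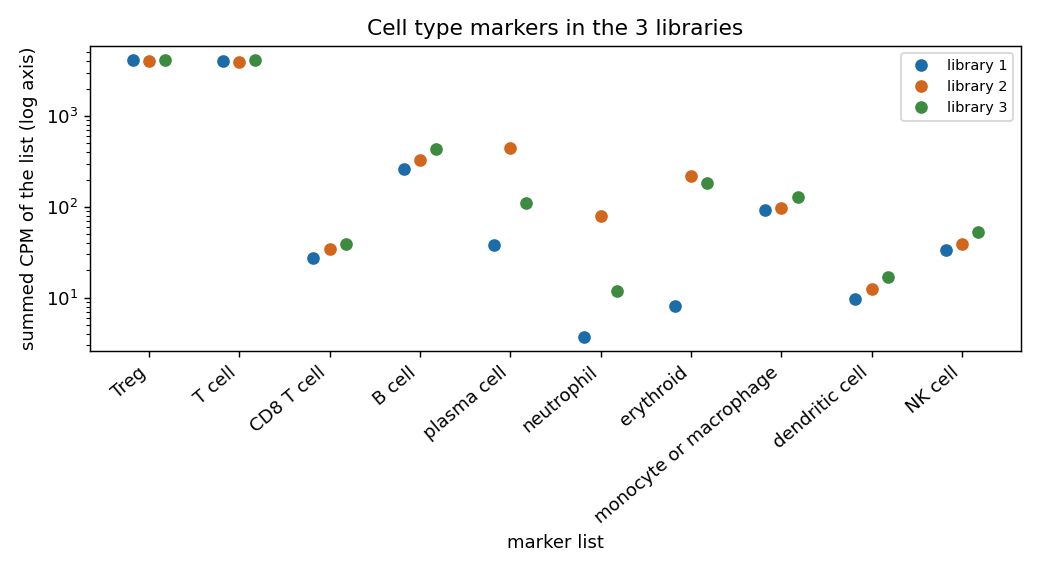
Summed CPM of each marker list (log axis) in libraries 1, 2 and 3. The regulatory T cell and T cell lists stay between 3918 and 4155 CPM in every library, whereas the neutrophil list is at 3.74, 80.2 and 11.8 CPM. In those T cell lists Cd3g, Cd3e and Izumo1r had 2.195, 2.16 and 2.04 counts per coding base, and Foxp3 had 0.361. In an earlier reading of these data, counts near 2 per coding base did not follow depth. The near-equal sums are therefore not read as equal cell content.

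The lists that peaked in library 2, as Casp1 and Casp4 did, were those of plasma cells, neutrophils and erythroid cells. Plasma cell markers (3 of 4 at 1 CPM in every library) summed to 38.4, 449 and 112 CPM, mostly Igha and Jchain. Igha had 4, 1007 and 149 counts in libraries 1, 2 and 3, although the labels give these as technical replicates. Neutrophil markers (0 of 10) summed to 3.74, 80.2 and 11.8 CPM, and S100a8, S100a9, Elane, Ltf, Lcn2 and Cxcr2 had no count in library 1. Erythroid markers (1 of 8) summed to 8.11, 218 and 183 CPM, with no count of Hbb-bs, Hbb-bt, Hba-a1, Hba-a2, Klf1 and Slc4a1 in library 1. Not every gene of these lists peaked in library 2. Csf3r (7, 3 and 3 counts) and Mpo (1, 0 and 0 counts) were highest in library 1. Lcn2, Cxcr2, Mzb1, Hba-a1, Hba-a2 and Klf1 were highest in library 3. Monocyte or macrophage markers (8 of 9) summed to 93.6, 96.6 and 128 CPM, highest in library 3, where Casp1 and Casp4 were lowest. The B cell list was also highest there, at 259, 328 and 431 CPM in libraries 1, 2 and 3. So were the CD8 (27.8, 34.4 and 39.0 CPM), dendritic cell (9.67, 12.4 and 17.1 CPM) and NK cell lists (33.4, 38.7 and 53.6 CPM). The genes of the monocyte or macrophage list did not move together. Of the 5 past the chi-square test, 4 were highest in library 3 and 1 in library 2. The latter was Ms4a6c, the highest gene of the list (39.9, 58.2 and 47.0 CPM), whereas Csf1r was lowest in library 2 (15.6, 5.89 and 16.0 CPM). Library 1, with the least of the neutrophil list, had 243 CPM of Casp1 and 185 CPM of Casp4, against 291 and 217 CPM in library 2. The part of other cells in the differences of Casp1 and Casp4 between libraries was not tested.

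The members lay from 0.0485 (Casp9) to 0.887 (Casp8) counts per coding base, against a maximum of 2.56 among coding genes of at least 300 bases. Cd3g, Cd3e and Izumo1r lay at 2.195, 2.16 and 2.04, near where counts did not follow depth in an earlier reading. From library 1 to library 3 the Casp8 count changed by -0.0543 on the log2 scale, against -0.159 for the library total. Casp1, Casp2, Casp4 and Cflar fell by more than the total, and Casp6, Casp9 and Fadd did not. Whether member counts rise in proportion to abundance was not tested, so levels and ratios to Casp8 assume that they do.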

How the data were processed

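The deposited files hold whole-number counts per gene for 3 libraries, on mm10 with GENCODE M4 per the descriptions deposited beside them. The aligner, the counter, the strand setting and the removal of duplicates are each not given in the sources used here. Symbols, positions and lengths came from GENCODE M21 on the same assembly (GRCm38), which matched 22195 of 22457 identifiers. All 131 entries of the gene and marker lists, the 8 members included, were found. Some genes of these pathways are not reported here. Members and lists were chosen with earlier results of these data known.

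CPM used total counts, and CPM per kb used the union of coding exons. Library differences used Pearson's chi-square against Poisson expectation (2 degrees of freedom) for genes with a mean count of at least 10. Library sizes came from edgeR 4.0.16 (TMM) in R 4.3.3. The chi-square test was tried only on simulated Poisson counts, so its behaviour under a wider spread was not tested. Ratios carry 95% exact binomial intervals. The group holds technical replicates, so no contrast between conditions was fitted. A protein table was not used here, and coding sequences were translated instead. All genes of short pathway lists were named, and of longer ones the 4 highest per kb, those past the test and those under 1 CPM. Markers were named by list. The alternatives tried were plain totals, size factors of DESeq2 1.42.0, other filters, a negative binomial model, other lengths and totals, and each library left out. The longest coding transcript as length, and library sizes for the test from genes with at most 0.5 counts per coding base, were added after the data were seen. Scripts used Python 3.11.15, numpy 2.4.6, scipy 1.17.1 and pandas 2.3.3.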

Additional observations from a re-analysis of the deposited data

How the results depend on the processing

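Levels per kb of exon sequence were 148 CPM for Casp8, 168 for Casp1, 52.1 for Casp4, 17.6 for Casp6, 16.8 for Casp2, 5.51 for Cflar, 4.22 for Fadd and 4.09 for Casp9, and 6 of 8 members kept their rank. Divided by the total of genes at or under 0.5 counts per coding base, levels per kb of coding sequence were 453 for Casp8, 329 for Casp1, 274 for Casp4, 188 for Casp6, 133 for Casp2, 73.8 for Cflar, 42.4 for Fadd and 24.7 for Casp9. This rests on a smaller total by construction.

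With exon length the log2 ratios were -4.75 for Cflar to Casp8, -5.17 for Fadd to Casp8, 5.18 for Casp8 to Casp9, -1.68 for Casp4 to Casp1, 0.0499 for Casp9 to Apaf1 and 0.63 for Casp8 to Fas. Without length correction they were -4.73 for Fadd to Casp8, 4.34 for Casp8 to Casp9, -0.37 for Casp4 to Casp1, 1.12 for Casp8 to Fas and, with the sign turned, -0.75 for Casp9 to Apaf1. With the longest coding transcript Casp8 to Fas was 0.51.

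The negative binomial model, with its dispersion taken from the same libraries, called 0 members and 94 genes, against 2 members and 2836 genes under Poisson. With 1 library left out, 0 to 2 members and 960 to 2014 genes passed. Without library 2 no member passed, and 1 had an unadjusted p under 0.05. The 2 member calls, Casp1 and Casp4, held under plain totals, DESeq2 size factors, both other filters and library sizes from genes at or under 0.5 counts per coding base. All 8 members reached 5 CPM in every library. Fadd and Casp9, with 42 to 74 counts per library, are the members that depth limits most.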
